A study of Mus musculus with 24 samples.

Results

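Etnppl, Prex2, Cdh19, Gpld1, Phyhd1, Cyp4f14 and Zkscan2 are 7 mouse genes selected on their log2 signal in the ventromedial hypothalamus (VMH), which was lower in arrays labelled as an astrocyte clock knockout than in control arrays. They are 7 of 30142 genes that had an array feature annotated with a single symbol, and each was measured by 1 such feature. The VMH is a hypothalamic nucleus that takes part in the control of feeding and energy use, and brown adipose tissue (BAT) is the thermogenic fat that it can drive through sympathetic nerves. Both tissues were profiled on 24 Affymetrix arrays, 3 in each of 8 groups. The groups were control mice, titled WT, and mice labelled Gfap-Bmal1 cKO, titled KO, each on a standard diet (SD) or a high fat diet (HFD) for 16 weeks before tissue was taken, and the same 4 groups were measured in VMH and in BAT. Bmal1 is a core gene of the circadian clock and Gfap marks astrocytes, so by its name the knockout is conditional, and cells without Gfap activity would keep Bmal1. Beyond WT and control, the labels do not say whether the controls carried floxed alleles or Cre, and they do not give the Cre line, the age or the sex of the mice, or the number of animals behind the 3 arrays. The p-values below therefore rest on differences among arrays that could be technical replicates. In such bulk RNA, fewer cells of a type and less RNA per cell cannot be told apart.

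The 7 genes have unlike products. Etnppl encodes an enzyme that breaks down phosphoethanolamine, an intermediate of membrane phospholipid metabolism, and in brain it is known as an astrocyte gene. Prex2 encodes an exchange factor that activates the small GTPase Rac downstream of phosphoinositide 3-kinase. Cdh19 encodes a type II cadherin, an adhesion molecule known from cells of the neural crest lineage and from glia. Gpld1 encodes a phospholipase D that cleaves glycosylphosphatidylinositol (GPI) anchors and circulates in blood, Phyhd1 an oxygenase related to the phytanoyl-CoA hydroxylase of alpha-oxidation, and Cyp4f14 a cytochrome P450 that hydroxylates fatty acids and eicosanoids. Zkscan2 encodes a nuclear protein with zinc fingers and a SCAN domain. In the clock, BMAL1 with its partner CLOCK binds E-boxes, and the proteins of other clock-controlled genes act through D-boxes and ROR elements.

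The genes lie apart. Etnppl is on chromosome 3, Gpld1 on 13, Phyhd1 on 2, Cyp4f14 on 17 and Zkscan2 on 7, while Prex2 and Cdh19 are both on chromosome 1 but are not neighbours, in the mouse gene table of assembly GRCm38.p6. Cdh19 stands next to another cadherin gene, Cdh7, and Cyp4f14 next to Cyp4f13. RefSeq promoter windows of GRCm38.p6, the 250 bases before an annotated start, were matched for 5 of the 7 genes, and Prex2 and Cdh19 had none. The windows of Etnppl and Phyhd1 that end at the start of the gene are shown because these genes held the largest and a small VMH difference, respectively. They are written in the direction of transcription, chr3:130617198-130617447 on the plus strand for Etnppl and chr2:30265953-30266202 on the plus strand for Phyhd1.
Etnppl: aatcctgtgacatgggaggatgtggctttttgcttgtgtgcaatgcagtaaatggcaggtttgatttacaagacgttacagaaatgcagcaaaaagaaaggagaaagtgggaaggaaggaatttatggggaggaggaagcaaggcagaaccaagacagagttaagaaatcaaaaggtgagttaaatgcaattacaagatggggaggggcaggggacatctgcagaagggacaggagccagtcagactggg
Phyhd1: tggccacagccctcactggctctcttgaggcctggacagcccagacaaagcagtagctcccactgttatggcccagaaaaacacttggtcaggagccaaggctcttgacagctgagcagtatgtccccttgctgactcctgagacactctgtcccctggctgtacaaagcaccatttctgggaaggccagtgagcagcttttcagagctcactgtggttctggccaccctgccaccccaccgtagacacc
No letters are in capitals because no searched motif was found in any window of the 5 genes. The motifs, read on both strands, were the E-box CACGTG, its variant CACGTT, the D-box TTANGTAA, the ROR element TAGGTCA and the palindromic nuclear factor I site. Of 32851 windows of all genes, 6.02% held the E-box, 3.85% the variant, 2.06% the D-box, 2.23% the ROR element and 0.0365% the nuclear factor I site. The windows differed in base composition, with 46.0% G and C for Etnppl and 57.2% for Phyhd1.

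The deposited values are log2 signals, and levels are compared only within a gene and a tissue. The targeted gene, Arntl (Bmal1), was not lower in the VMH arrays labelled cKO, with a log2 difference from control of 0.55 on SD and 0.24 on HFD, so every direction below rests on the labels. All 10 VMH neuron markers were bright enough to be tested in VMH and 12 of 13 brown adipocyte markers in BAT. In BAT, the brown fat gene Ucp1 stood at the ceiling of the values, 19.93, in all 6 HFD arrays, but at 8.87 in control SD array 1 and 16.3 in cKO SD array 2. The mean log2 signal of 14 skeletal muscle markers ran from 6.01 to 17.9 in control SD arrays, from 15.0 to 17.6 in cKO SD, from 6.04 to 10.03 in control HFD and from 6.05 to 13.3 in cKO HFD. Both arrays of lowest Ucp1 are SD arrays, and the SD differences of Prex2 and Cdh19 in BAT and the diet differences of Gpld1 and Phyhd1 there are also given without them. The spread between arrays of a group was also unequal between tissues: for Prex2 the within-group standard deviation was 0.29 in VMH and 1.22 in BAT, and for Cdh19 0.30 and 0.56.

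In VMH all 7 genes were lower in the arrays labelled cKO on HFD, and 6 of the 7 on SD, Zkscan2 being the exception. Counting both diets, Etnppl was at 20.7% to 23.9% of its control level, Prex2, Cdh19 and Gpld1 at 35.1% to 53.3%, and Phyhd1 at 70.1% to 81.3%. Zkscan2 was at 77.1% of control on HFD, and for Cyp4f14, which was dim, no percentage is given. Cdh19 and Phyhd1 were not bright either, above 72.2% and 65.9% of the negative control features in VMH. Background may therefore enter their percentages. The 95th percentile of the negative control features was 9.73, above every Zkscan2 group and the cKO means of Etnppl and Prex2. Background may thus enter those percentages too. The 23 background control features were lower, with a median of 3.52 in VMH. The genotype differences chose the genes, so these percentages are a description and carry no test.

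Etnppl had log2 signals of 10.42, 10.98 and 10.79 in the control SD arrays and of 8.59, 8.64 and 8.77 in the cKO SD arrays. On HFD it stood at 11.21, 10.45 and 10.94 in control and at 8.84, 8.59 and 8.35 in cKO. Every control array lay above every cKO array over both diets. The group means were 10.73 ± 0.29 (standard deviation, n = 3) in control SD, 8.66 ± 0.09 in cKO SD, 10.86 ± 0.39 in control HFD and 8.59 ± 0.25 in cKO HFD. The log2 difference was -2.07 ± 0.20 (SE) on SD and -2.27 ± 0.20 on HFD, the lowest of all 16211 genes tested on either diet. The order of levels was control HFD, control SD, cKO SD, cKO HFD, and the diets overlapped within each genotype.

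Prex2 stood at 10.63, 11.09 and 10.93 in control SD arrays and at 9.56, 9.82 and 9.64 in cKO SD arrays on the log2 scale. Its HFD signals were 11.61, 10.63 and 10.96 in control and 9.54, 9.47 and 9.66 in cKO. The genotypes did not overlap on either diet, and control HFD array 1 was the highest of the 12. The mean was 10.88 ± 0.23 in control SD and 9.67 ± 0.13 in cKO SD, a log2 difference of -1.21 ± 0.21 (SE), and the HFD means were 11.07 ± 0.50 and 9.56 ± 0.10, a difference of -1.51 ± 0.21 (SE). Prex2 was thus at 43.3% of control on SD and 35.1% on HFD.

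Cdh19 had control SD signals of 7.67, 7.997 and 8.24 against 6.52, 6.89 and 6.95 in cKO SD. On HFD the control arrays gave 8.38, 7.51 and 7.87 and the cKO arrays 6.53, 6.31 and 6.57. The genotypes did not overlap on either diet, and the cKO arrays of the 2 diets overlapped each other. The log2 difference was -1.18 ± 0.21 (SE) on SD and -1.45 ± 0.21 on HFD, or 44.1% and 36.6% of control.

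Gpld1 stood at 10.63, 11.19 and 10.82 in control SD and at 9.68, 10.15 and 10.09 in cKO SD. On HFD it stood at 10.98, 10.55 and 11.03 in control and at 9.97, 10.002 and 9.76 in cKO. The genotypes were apart on both diets and the diets overlapped within each genotype. Its log2 differences were close to each other, -0.91 ± 0.17 (SE) on SD and -0.95 ± 0.17 on HFD, or 53.3% and 51.9% of control.

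Phyhd1 had signals of 6.93, 7.16 and 7.07 in control SD and 6.63, 6.78 and 6.86 in cKO SD. The HFD values were 7.21, 7.23 and 7.35 in control and 6.83, 6.78 and 6.64 in cKO. The genotypes did not overlap, and among controls every HFD array lay above every SD array, while the cKO arrays of the 2 diets overlapped. The log2 difference between genotypes was -0.30 ± 0.08 (SE) on SD and -0.51 ± 0.08 on HFD.

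Cyp4f14 was dim in VMH, with a mean below the median of the 5222 negative control features of the arrays (6.20). Its control SD arrays gave 6.16, 6.10 and 6.28 and its cKO SD arrays 5.94, 5.99 and 5.93. Its HFD arrays gave 6.49, 6.27 and 6.19 in control and 5.80, 5.90 and 5.86 in cKO. The genotypes did not overlap on either diet, with log2 differences of -0.23 ± 0.08 (SE) on SD and -0.46 ± 0.08 on HFD.

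Zkscan2 showed the other pattern. It stood at 8.57, 8.63 and 8.66 in control SD and at 8.73, 8.68 and 8.67 in cKO SD, with every cKO array slightly above every control array. On HFD the control arrays stood at 8.78, 8.74 and 8.74 and the cKO arrays at 8.37, 8.47 and 8.30. The log2 difference was 0.07 ± 0.06 (SE) on SD and -0.38 ± 0.06 on HFD, and the second minus the first was -0.45, a value with no test because these contrasts chose the gene. The order of levels was control HFD, cKO SD, control SD, cKO HFD. No 2 neighbours in that order overlapped, but the gaps between the first 3 were small.

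**Figure D1:**
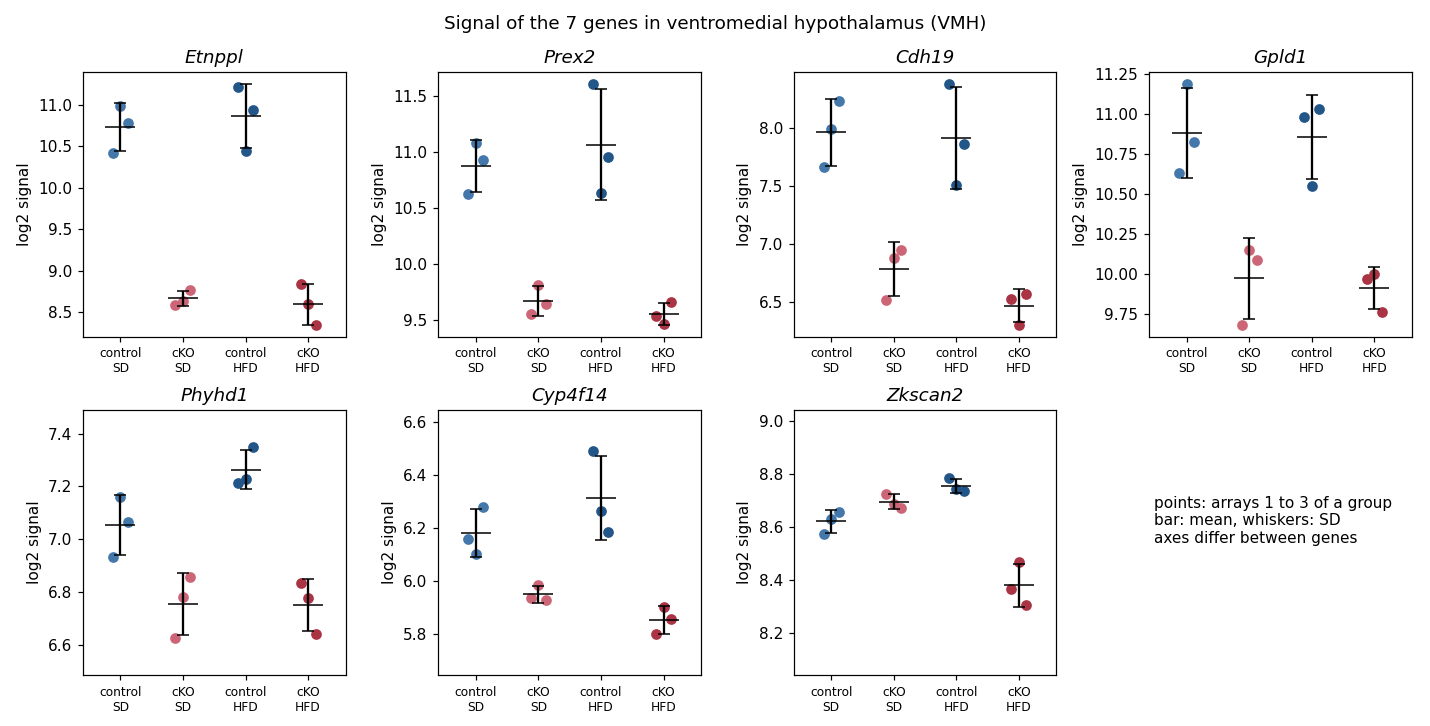
Log2 signal of each of the 7 genes (y axis, scaled per gene) in the 4 VMH groups (x axis), with points for single arrays, a bar for the group mean and whiskers for the standard deviation. Control arrays lie above cKO arrays on both diets for Etnppl, Prex2, Cdh19, Gpld1, Phyhd1 and Cyp4f14, whereas Zkscan2 is below control on HFD and slightly above it on SD.

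Arrays without overlap in the lower direction were thus found for 6 of the 7 genes on SD, where 2.92% of all tested genes had them, and for 7 of 7 on HFD, where 7.08% had them. On both diets at once they were found for 6 of the 7, against 0.376% of all genes. The higher direction on SD, shown by Zkscan2, was found for 7.01% of all genes. By limma with an adjusted p below 0.05, 3 genes fell on SD (0.0185% of those tested), of which 2 are among the 7, and 10 fell on HFD (0.0617%), of which 6 are. In the mean of both diets 17 fell (0.105%), of which 6 are among the 7. At the edge of that threshold on HFD stood Cyp4f14 just inside, with a log2 difference of -0.46, and Gpld1 just outside, with -0.95. Because these contrasts chose the genes, nothing is read from these counts.

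Arrays that were high or low in a group tended to be so for several of the genes. Control SD array 1 was the lowest of its group for 6 of the 7, all but Cyp4f14. Control HFD array 1 was the highest of its group for Etnppl, Prex2, Cdh19, Cyp4f14 and Zkscan2, and control HFD array 2 the lowest for Etnppl, Prex2, Cdh19 and Gpld1. These arrays share their RNA sample across the genes, so such agreement within an array is not a replicate of any difference between groups.

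Diet, averaged over the genotypes, was a comparison that the choice of genes did not use. It does share the arrays and the estimate of spread with the contrasts that chose them. If the choice favoured genes of small spread, the intervals below are too narrow. None of the 7 genes passed the test of HFD against SD in VMH, by limma with Benjamini-Hochberg adjustment over all genes. Only 2 of all genes did (0.0123%), and 2075 had an unadjusted p below 0.05. The log2 difference, HFD minus SD, was 0.03 for Etnppl (95% interval -0.28 to 0.34), 0.04 for Prex2 (-0.29 to 0.36), -0.18 for Cdh19 (-0.51 to 0.15) and -0.04 for Gpld1 (-0.32 to 0.23). It was 0.10 for Phyhd1 (-0.03 to 0.23), 0.02 for Cyp4f14 (-0.11 to 0.14) and -0.09 for Zkscan2 (-0.18 to -0.002), whose limma adjusted p of 0.380 was the lowest of the 7. Within a genotype, as values only, HFD minus SD was positive in controls for 5 of the 7 genes, with Phyhd1 at 0.21, Prex2 at 0.19 and Zkscan2 at 0.13. It was negative in the cKO arrays for all 7, from -0.005 for Phyhd1 to -0.32 for Cdh19 and -0.31 for Zkscan2. Of all tested genes, 43.9% were negative in controls and 40.3% in the cKO arrays. Unlike the average over genotypes, these differences are correlated by design with the contrasts that chose the genes. That choice can set their signs, so nothing is read from these counts.

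BAT did not enter the choice of the genes. Etnppl, Cyp4f14 and Zkscan2 were too dim there to be tested, and Prex2, Cdh19, Gpld1 and Phyhd1 were tested. None of these 4 passed the test between genotypes on SD, on HFD or in the mean of both, by limma with an adjusted p below 0.05, and neither did any other of the 17124 genes (0%). At an unadjusted p below 0.05 the counts of all genes were 610 on SD, 1414 on HFD and 1495 in the mean. On SD none of the 7 genes had BAT arrays apart by genotype, where 3.71% of all tested genes were lower and 3.53% higher without overlap.

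**Figure D2:**
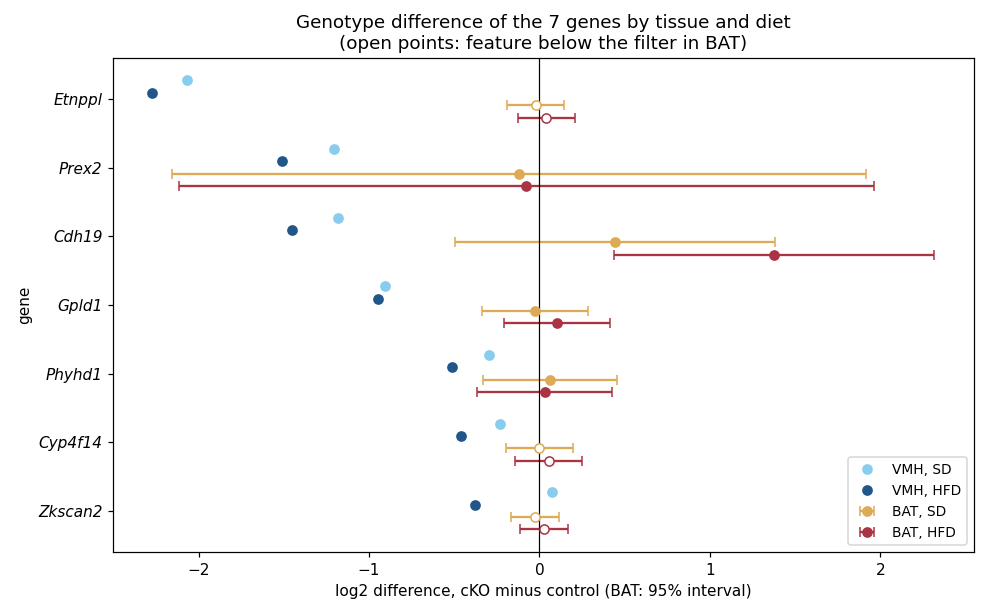
Log2 difference between cKO and control arrays (x axis) for each gene (y axis), in VMH and BAT on each diet, with 95% intervals from limma for BAT. VMH points have none because these differences chose the genes. The VMH points of 6 genes lie below 0 on both diets, the intervals of the BAT points include 0 for every gene except Cdh19 on HFD, and open points mark genes below the brightness filter in BAT.

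Etnppl in BAT had log2 signals between 3.52 and 3.74 over the 12 arrays, below the median of the negative control features there (4.85). Its log2 difference between genotypes was -0.02 on SD and 0.04 on HFD. Cyp4f14 lay between 3.65 and 3.96 with differences of -0.001 and 0.05, and Zkscan2 between 3.25 and 3.44 with differences of -0.03 and 0.03. A difference in these 3 genes was not detectable at such signals.

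Prex2 was bright in BAT. Its control SD arrays stood at 9.59, 13.33 and 12.39 and its cKO SD arrays at 13.20, 10.45 and 11.30. Its HFD arrays stood at 13.28, 13.24 and 12.57 in control and at 13.12, 13.03 and 12.70 in cKO. The genotypes overlapped on both diets, and the SD arrays were spread more widely than the HFD arrays. The log2 difference between genotypes was -0.12 on SD (95% interval -2.16 to 1.92) and -0.08 on HFD (-2.11 to 1.96), intervals that include the differences seen in VMH. Without both arrays of lowest Ucp1 the value for Prex2 on SD was -0.61 ± 0.59 (SE), with a limma adjusted p of 0.951. Leaving out these SD arrays cannot move a difference on HFD.

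Between diets, Prex2 in BAT was 1.28 ± 0.64 (SE) higher on HFD on the log2 scale, with a limma adjusted p of 0.174. The 2 lowest Prex2 arrays, control SD array 1 and cKO SD array 2, also had the lowest mean signals of the brown adipocyte markers, 10.5 and 11.7, where the other 10 arrays lay between 13.2 and 14.9. The muscle markers stood at 17.9 and 17.6 in them. With the muscle marker level in the fit the Prex2 diet difference was 0.009 ± 0.69 (adjusted p = 0.998), and without both arrays it was 0.43 ± 0.38 (adjusted p = 0.512), by limma. It was 0.73 without control SD array 1 alone, and with array weights it was 1.78 with a limma adjusted p of 0.018. The part of tissue composition in it was not otherwise tested.

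**Figure D3:**
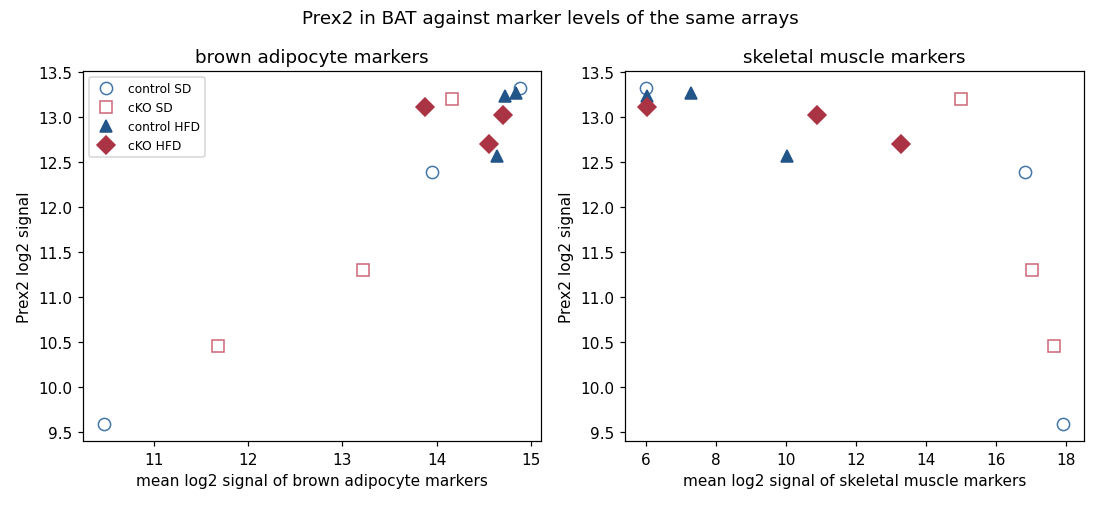
Log2 signal of Prex2 in the 12 BAT arrays (y axis) against the mean log2 signal of brown adipocyte markers (left) and skeletal muscle markers (right) in the same arrays (x axes), with symbols for the 4 groups. The arrays with Prex2 at 9.59 and 10.45 have the lowest brown adipocyte marker levels, 10.5 and 11.7, and the highest muscle marker levels, 17.9 and 17.6.

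Cdh19 stood at 6.76, 7.36 and 7.48 in control SD and at 8.37, 7.76 and 6.80 in cKO SD in BAT, groups that overlapped. On HFD the control arrays gave 6.11, 6.27 and 7.20 and the cKO arrays 7.55, 8.26 and 7.89, so that every cKO array lay above every control array. The log2 difference was 0.44 ± 0.42 (SE) on SD and 1.38 ± 0.42 on HFD (95% interval 0.44 to 2.32), where its sign was opposite to that in VMH. The HFD difference had an unadjusted p of 0.00855 and an adjusted p of 0.497 by limma, so it did not pass. Of all tested genes, 7.33% had higher cKO arrays without overlap on HFD. The mean over diets was 0.91 with a limma adjusted p of 0.547, and the change of the difference between diets was 0.94 with an adjusted p of 1. With the muscle markers in the fit the HFD difference of Cdh19 was 1.37 ± 0.45. The SD difference of Cdh19 was not stable. It was 0.17 ± 0.54 without both arrays of lowest Ucp1, 0.22 without control SD array 1, 0.08 without cKO SD array 1, 0.87 without cKO SD array 3 and -0.16 with array weights.

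Other marker levels were also compared between these HFD groups, where 53.0% of all tested genes were negative. All 14 muscle markers were higher in cKO HFD, with a median log2 difference of 2.26, and all 7 tested endothelial markers were lower, with a median of -1.33. None passed the test. The mean muscle signal overlapped between the groups, and the mean endothelial signal did not (9.90 to 10.8 in control HFD, 9.08 to 9.20 in cKO HFD). Markers of a cell type move together, so these counts are not separate results. For Schwann cells, a cell type of nerves in which Cdh19 is known, 5 of 6 tested markers were higher with a median of 0.09. The mean Schwann marker signal lay between 5.75 and 5.83 in control HFD arrays and between 5.79 and 5.99 in cKO HFD arrays. The part of these cell types in the Cdh19 difference was not tested beyond the muscle term given above.

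Gpld1 in BAT ranged from 4.98 to 5.30 in control SD, from 4.86 to 5.20 in cKO SD, from 5.23 to 5.46 in control HFD and from 5.28 to 5.65 in cKO HFD. The genotypes overlapped on both diets, with log2 differences of -0.03 (95% interval -0.34 to 0.29) on SD and 0.10 (-0.21 to 0.42) on HFD. Neither interval for Gpld1 reaches the VMH difference on that diet, -0.91 and -0.95. Phyhd1 ranged from 5.73 to 5.93 in control SD, from 5.48 to 6.32 in cKO SD, from 5.45 to 5.55 in control HFD and from 5.47 to 5.63 in cKO HFD. Its genotype differences were 0.06 (95% interval -0.33 to 0.46) on SD and 0.03 (-0.36 to 0.42) on HFD, and its interval includes the VMH difference on SD, -0.30, and does not reach that on HFD, -0.51. In BAT, Gpld1 lay above 59.9% of the negative control features and Phyhd1 above 70.2%. At such signals a fall of the size seen in VMH may not show in full. The difference between the tissues was not tested.

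Between diets in BAT, Gpld1 and Phyhd1 came nearest to the threshold and neither passed it. HFD minus SD, averaged over genotypes, was 0.31 ± 0.10 (SE) for Gpld1 with a limma adjusted p of 0.0543 and -0.37 ± 0.12 for Phyhd1 with 0.0652, in a comparison where 18.5% of all genes passed. Cdh19 stood at -0.21 ± 0.30 there. Without both arrays of lowest Ucp1 the values were 0.23 ± 0.10 for Gpld1 and -0.25 ± 0.10 for Phyhd1, with limma adjusted p of 0.207 and 0.177. Both passed without control SD array 2, where Gpld1 had an adjusted p of 0.0218 and Phyhd1 of 0.048, and without cKO SD array 1, with 0.0395 and 0.00841, by limma. The change of the genotype difference between diets passed in BAT for none of the 4 genes and for none of all genes by limma (0%), with 649 at an unadjusted p below 0.05.

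**Figure D4:**
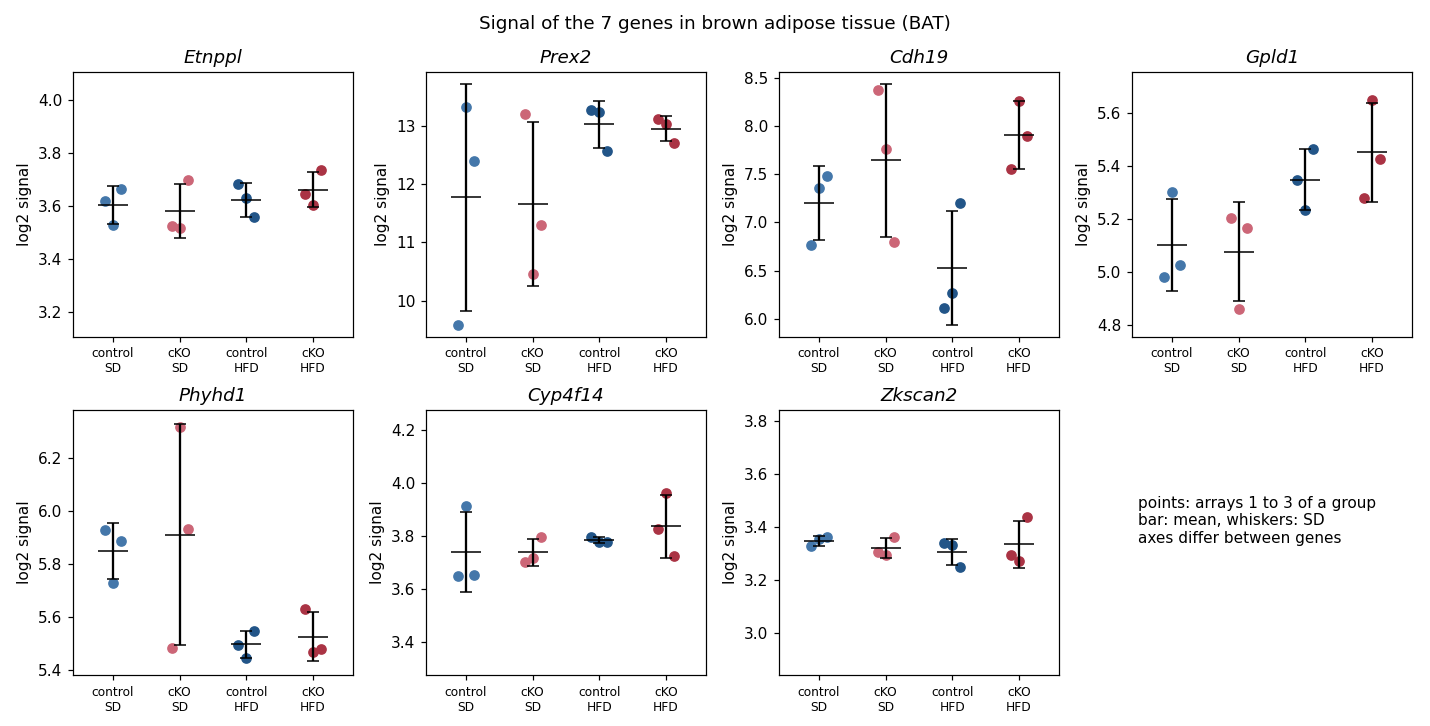
Log2 signal of each of the 7 genes (y axis, scaled per gene) in the 4 BAT groups (x axis), with points for single arrays, a bar for the group mean and whiskers for the standard deviation. Prex2 spreads from 9.59 to 13.3 on SD, Cdh19 is higher in the cKO than in the control arrays on HFD, and Etnppl, Cyp4f14 and Zkscan2 stay between 3.25 and 3.96.

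Among relatives of the 7 genes by pathway or family, Tiam2 and Cyp4f15 passed the test in VMH and the other relatives tested did not. In the mean over diets, 0.555% of all genes rose and 0.105% fell by limma with an adjusted p below 0.05, and the median log2 difference of all genes was 0.02, with 39.4% of genes negative. Of 15 tested genes of ethanolamine and choline phospholipid metabolism around Etnppl, none passed and 8 were negative, with a median of -0.01. Phykpl, the closest relative of Etnppl and a phospho-lyase of hydroxylysine, stood at 0.05 ± 0.04 (SE), and Pcyt2, which makes the activated form of phosphoethanolamine, at -0.10.

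Around Prex2, 1 of 13 Rac exchange factors and phosphoinositide 3-kinase genes rose and none fell. The 1 was Tiam2, another exchange factor of Rac. Its VMH log2 signals were 5.71, 5.83 and 5.75 in control SD, 6.35, 6.47 and 6.43 in cKO SD, 5.84, 5.87 and 5.76 in control HFD, and 6.35, 6.44 and 6.47 in cKO HFD. The genotypes were apart by more than their spread on both diets, in the direction opposite to Prex2. All 6 control arrays lay below the median of the negative control features in VMH (6.20) and all 6 cKO arrays above it, so Tiam2, like Cyp4f14, was dim. Tiam2 rose by 0.63 ± 0.04 (SE) in the mean over diets with a limma adjusted p of 2.96e-05, by 0.66 on SD with 0.000856 and by 0.60 on HFD with 0.00147. On SD the call was lost when only the groups compared were fitted (limma adjusted p = 0.0549). Prex1, the nearest relative of Prex2, stood at 0.17 ± 0.06 with a limma adjusted p of 0.332.

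Around Cdh19, none of 13 genes (type II cadherins and Cdh2) passed, 6 were negative and the median was 0.02. Cdh7, the neighbour of Cdh19 on the chromosome, stood at -0.25 ± 0.07 (SE) with a limma adjusted p of 0.215, and Cdh20 at 0.27 ± 0.12 with 0.420. None of 18 genes that make, remodel or cleave GPI anchors passed, around Gpld1, with a median of 0.03. None of 8 relatives of Phyhd1 and genes of alpha-oxidation passed, with a median of 0.06, Phyhip at 0.29 and Phyh, the hydroxylase itself, at 0.03.

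Around Cyp4f14, 1 of 5 tested members of cytochrome P450 family 4 fell and none rose. The 1 was Cyp4f15, on the same chromosome. Its VMH log2 signals were 6.76, 7.15 and 6.89 in control SD and 6.18, 6.05 and 6.15 in cKO SD, and 7.62, 6.87 and 6.93 in control HFD against 6.28, 6.06 and 6.28 in cKO HFD. Genotypes did not overlap on either diet, and the cKO arrays lay near the median of the negative control features (6.20). Cyp4f15 fell by 0.87 ± 0.12 (SE) on the log2 scale with a limma adjusted p of 0.00745, while on SD (-0.81, adjusted p = 0.179) and HFD (-0.94, adjusted p = 0.0649) alone it did not pass. Cyp4f16 stood at -0.03. Array features of such close relatives can share sequence, and cross-hybridisation between them was not tested. None of 17 SCAN zinc finger genes around Zkscan2 passed, with a median of 0.02.

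**Figure D5:**
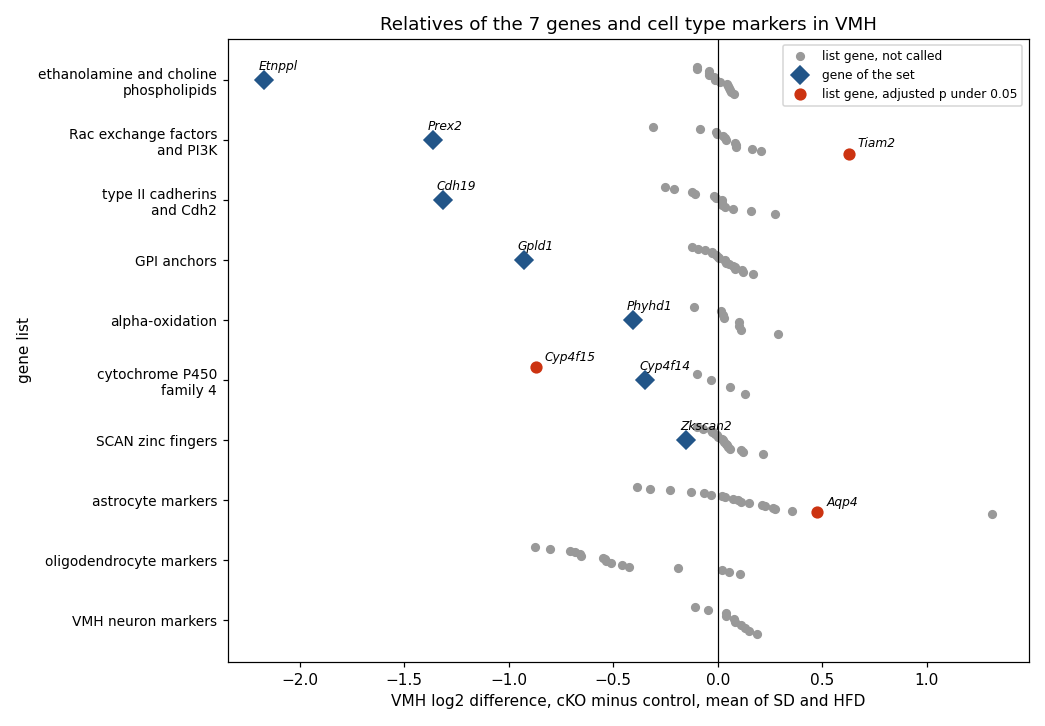
VMH log2 difference between cKO and control arrays, mean of SD and HFD (x axis), for the genes of 7 lists of relatives and 3 lists of cell type markers (y axis), with the 7 genes as diamonds. Grey points did not pass, and the red points are Tiam2 at 0.63, Cyp4f15 at -0.87 and Aqp4 at 0.48.

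Of 19 astrocyte markers tested, 6 were negative in the mean over diets, a share near the 39.4% of all genes, with a median of 0.10. Of them 1 passed, Aqp4, the water channel of astrocyte endfeet. Aqp4 rose by 0.48 ± 0.09 (SE) with a limma adjusted p of 0.0479, and the call was lost in 12 of 20 other settings. The mean astrocyte marker signal lay between 10.4 and 10.9 in control SD, 10.7 and 10.9 in cKO SD, 10.5 and 10.7 in control HFD, and 10.7 and 10.8 in cKO HFD. Slc1a2, the main glutamate transporter of astrocytes, stood at -0.23 ± 0.05 with a limma adjusted p of 0.0823, and Gfap at 1.31 ± 0.32 with 0.126.

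Oligodendrocyte markers were mostly negative, as the 7 genes were. Of 16 tested, 13 were negative with a median of -0.54, and none passed. Their mean signal lay between 9.51 and 10.9 in control SD, 9.12 and 10.1 in cKO SD, 9.74 and 9.97 in control HFD, and 9.34 and 9.53 in cKO HFD, so that the genotypes overlapped on SD and not on HFD. With that level in the fit the genotype difference was -1.95 on SD and -2.19 on HFD for Etnppl, -1.08 and -1.43 for Prex2, and -0.95 and -1.29 for Cdh19. For Gpld1 it was -0.77 and -0.85, for Phyhd1 -0.23 and -0.47, and for Cyp4f14 -0.20 and -0.44. Zkscan2 stood at 0.08 and -0.37. The genotype contrasts chose these genes. On HFD the marker level was itself apart by genotype, so this fit cannot separate marker level from genotype there. The values are a description, and the part of oligodendrocytes was not tested. VMH neuron markers had a median difference of 0.08, with 2 of 10 negative and none past the threshold.

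Genes outside the set with the most similar VMH pattern were ranked by the root mean square difference of their 4 centred group means on the log2 scale. Genes with Gm or Rik names were left out, among them 2900052N01Rik, which fell past the threshold on SD, on HFD and in the mean. The distance was not scaled, so it grows with the size of a difference. It is therefore large for Etnppl, which had the lowest difference of all tested genes. For Etnppl the nearest were Aldh1a1 at 0.63, Glns-ps1 at 0.64 and Cyp4f15 at 0.65. The same 3 genes were nearest to Prex2 and to Cdh19, with Cyp4f15 at 0.25 from Prex2 and Aldh1a1 at 0.21 from Cdh19. Nearest to Gpld1 was Hhip at 0.10, to Cyp4f14 Pcdh9 at 0.04 and to Zkscan2 Vcpip1 at 0.03, behind an immunoglobulin kappa variable segment. Nearest to Phyhd1 was Per3, a clock gene, at 0.03, followed by Fryl at 0.05 and Aass at 0.06. Per3 passed on neither diet, with a limma adjusted p of 0.819 on SD and 0.159 on HFD. These distances describe 4 group means and share the arrays that chose the genes.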

How the data were processed

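Arrays were made from total RNA of VMH, cut from 100 µm sections of frozen brain, and of BAT, 20 mg per sample. The authors deposited log2 signals in 1 column per array. Their software, per the submitters' processing notes, included PLIER 2.0 and Affymetrix Expression Console 1.1.1, whereas the method that made arrays comparable and the build were not given in the sources used here. Precision is limited by 3 arrays per group. Of 65956 features that were no controls, 30604 had 1 symbol, and the brightest stood for a gene. Genes whose mean over a tissue reached the median of the table (5.51 in VMH, 4.13 in BAT) were tested, 16211 and 17124 of them. Group means were fitted with limma 3.58.1 (R 4.3.3) to all 12 arrays of a tissue, with no block and two-sided, and p-values were adjusted by Benjamini-Hochberg over all genes tested. The 7 genes, the rule for naming genes (the 7, their relatives by known function, and nearest patterns without predicted genes and small RNAs) and the lists were chosen with earlier results of these data known. The fit was tested on simulated data. Alternatives were other normalization, pseudocount, filter, feature choice, prior, weights, blocks, marker covariates and left-out arrays. Leaving out both BAT arrays of lowest Ucp1 was chosen after seeing the data.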

Additional observations from a re-analysis of the deposited data

Results flagged for a closer look

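For Cdh19 the difference between cKO and control arrays on HFD pointed in opposite directions in the 2 tissues, and every array of a group lay on the same side. The log2 difference was -1.45 in VMH and 1.38 in BAT. The difference between the tissues was not tested, and the VMH value is one that chose the gene.

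For Zkscan2 the VMH difference between cKO and control arrays was -0.38 on HFD and 0.073 on SD on the log2 scale, with groups that did not overlap in either. The difference between the diets was not tested for this gene, because it shares arrays with the comparison that chose it, and the SD value is close to the spread between its arrays.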

How the results depend on the processing

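In VMH the mean log2 genotype difference of the 7 genes was -0.83 on SD, -1.08 on HFD and -0.95 averaged, and stayed between -0.92 and -0.73, -1.19 and -0.96, and -1.01 and -0.87 over the alternatives, 12 of them leaving out 1 array. Each gene kept its sign in all of them, Zkscan2 on HFD moving to -0.30 under quantile normalization. These contrasts chose the genes, whose groups did not overlap on either diet. Leaving out 1 array therefore could not change a sign on SD or HFD, and the kept signs are a description only. No gene of the set was called for diet in VMH, or for genotype or interaction in BAT, under any alternative. For diet in BAT the count of 0 became 1 with quantile normalization and with a trended and robust prior, 2 with array weights, and 0 to 2 when single arrays were left out. Within a tissue no pairing by replicate number was seen. Same-numbered arrays correlated from -0.35 to 0.28 in VMH and from -0.77 to 0.39 in BAT after removing group means. Their median was -0.01 in VMH and 0.09 in BAT, against 0.008 and -0.02 for arrays of unlike number. Such correlations cannot exclude a pairing, and whether same-numbered VMH and BAT arrays share a mouse was not tested. With the replicate block the mean differences stayed at -0.83, -1.08 and -0.95, the calls of the set stayed at 0, and counts of all genes called were 30, 42 and 95 in VMH against 44, 49 and 107. Counts of all genes called ranged over the alternatives from 10 to 86 on SD, 31 to 125 on HFD and 74 to 370 averaged in VMH, from 0 to 27 for diet in VMH, from 0 to 191 for genotype on HFD and 0 to 5 averaged in BAT, from 15 to 5986 against 3171 for diet in BAT, and from 0 to 2 for the interaction in BAT; the cause was not tested.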
